A study of Mus musculus with 10 samples.

Results

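The genes described here are 52 members of the transforming growth factor beta (TGF-beta), bone morphogenetic protein (BMP) and activin pathways, out of 18955 genes with a symbol that could be tested. They were chosen from a list of names: a gene probe of the array belonged to a member if its annotated name was on the list or its transcript accession belonged to that gene. The list held 15 ligands, 5 proteins of ligand storage and cleavage, 11 receptors, 7 Smads, 7 antagonists, 2 ubiquitin ligases and 5 target genes. All 52 had a tested probe, and the 52 probes that stood for them were well above background on all 10 arrays. So were 36238 of all 38629 tested probes.

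The animals were 10 male mice of the ICR strain, 6 months old and housed singly, and RNA of each femur sample went onto 1 array. The 5 controls walked freely. The other 5, called unloaded, were hung by the tail with the head down for 24 h, so that the hind legs bore no weight. The labels name no genotype, transgene or drug, and number the animals of each group separately. Controls weighed 26.85 to 31.3 g and unloaded mice 25.53 to 29.34 g. Comparing the groups asks which of these transcripts differ in the bone after 1 day without load.

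Ligands of this superfamily are dimers that bring type I and type II receptor kinases together, and the type I kinase phosphorylates receptor Smads, which enter the nucleus with Smad4. TGF-beta and activin ligands act mainly through Smad2 and Smad3, and BMPs through Smad1 and Smad5, while Smad6 and Smad7 inhibit. In bone, TGF-beta is stored in latent form in the matrix and released during resorption, BMPs promote osteoblast and cartilage differentiation, and secreted antagonists such as noggin and follistatin hold the ligands off their receptors.

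Signals are log2 intensities minus the array's 75th percentile, so 1 unit is a factor of 2, and each difference is unloaded minus control. A probe reports on its own transcript only, and levels are not compared between genes. Errors are SDs over 5 animals or standard errors (SE) of a difference from limma, a linear model fitted over all 38629 tested probes, whose p-values were adjusted by the Benjamini-Hochberg method. The number of arrays limits the precision. In whole bone, fewer cells of a type and less RNA per cell cannot be told apart.

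The samples held RNA of bone, marrow and attached tissue. All 106 tested markers of 13 cell types, out of 108 listed, were well above background on every array, among them 7 osteoblast and 6 osteocyte genes. Summed marker signals, as means of log2 values, overlapped between the groups. Cartilage markers ran from 1.80 to 2.61 in controls and from 2.03 to 2.84 in unloaded mice, with 10 of 10 higher on average. Skeletal muscle markers ran from 2.87 to 4.11 and from 3.04 to 4.09, with 11 of 12 lower. Adipocyte markers ran from 1.06 to 2.09 and from 1.08 to 2.01, with 8 of 8 lower. Osteocyte markers ran from 0.48 to 0.70 and from 0.61 to 0.93, with 6 of 6 higher, and T and NK cell markers from -0.84 to -0.64 and from -0.73 to -0.55, with 7 of 8 higher. B cell markers ran from 1.55 to 1.83 and from 1.13 to 1.83, with 6 of 8 lower. In the other lists, 7 of 8 osteoclast, 7 of 8 megakaryocyte and 6 of 7 osteoblast markers were higher. Lower were 6 of 8 periosteum and fibroblast, 5 of 8 endothelial, 4 of 7 erythroid and 4 of 8 neutrophil markers. Of all genes, 60.4% were higher. Limma called 0 of these markers, and their part in the values below was not tested.

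Slide followed group for most arrays. Slide 1 held controls 1 to 4, slide 2 held control 5 and unloaded mice 1 to 3, and slide 3 held unloaded mice 4 and 5. Slide 2 alone carries both groups, with a single control. Its differences are given beside the results for part of the members, and not for the other pathway genes. Unloaded 5 stood apart, with a median correlation of 0.973 with the other arrays over all tested probes, where the other 9 arrays had 0.985 to 0.988.

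After 24 h of unloading no member passed the test. Limma called 0 of 52 members at an adjusted p below 0.05, with 1 call among all 38629 probes (0.00259%), and the members' adjusted p ran from 0.240 to 0.971. At an unadjusted p below 0.05 there were 5 members. Higher were Inhbb, Fstl3, Bmp7 and Nog, which is 7.69% of the members against 9.90% of all genes. Lower was Inhba, 1.92% of the members against 5.87% of all genes. All 5 unloaded animals lay above all 5 controls for 1 member, Inhbb (1.92% against 1.50% of genes), and below them for 0 members (1.80% of genes). These shares lie near or below those of all genes.

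Over the whole list, 27 members had a positive and 25 a negative difference, with a median of 0.02, where 60.4% of all genes were positive and their median was 0.05. The typical size of a member's difference, its median without sign, was 0.11, against 0.14 for all genes. The unadjusted 95% intervals of the differences give the precision of the fit without slide. All 52 lay within a 2-fold change in either direction (99.1% of all genes), 47 within 1.5-fold (85.4%) and 7 within 1.2-fold (11.0%). The lowest bound was -0.77, for Inhba, and the highest 0.61, for Inhbb. With slide as a fixed block, Ltbp3 had 0.57 (SE 0.26) and Gdf10 0.55 (SE 0.27). The intervals therefore do not bound the differences apart from slide.

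**Figure D1:**
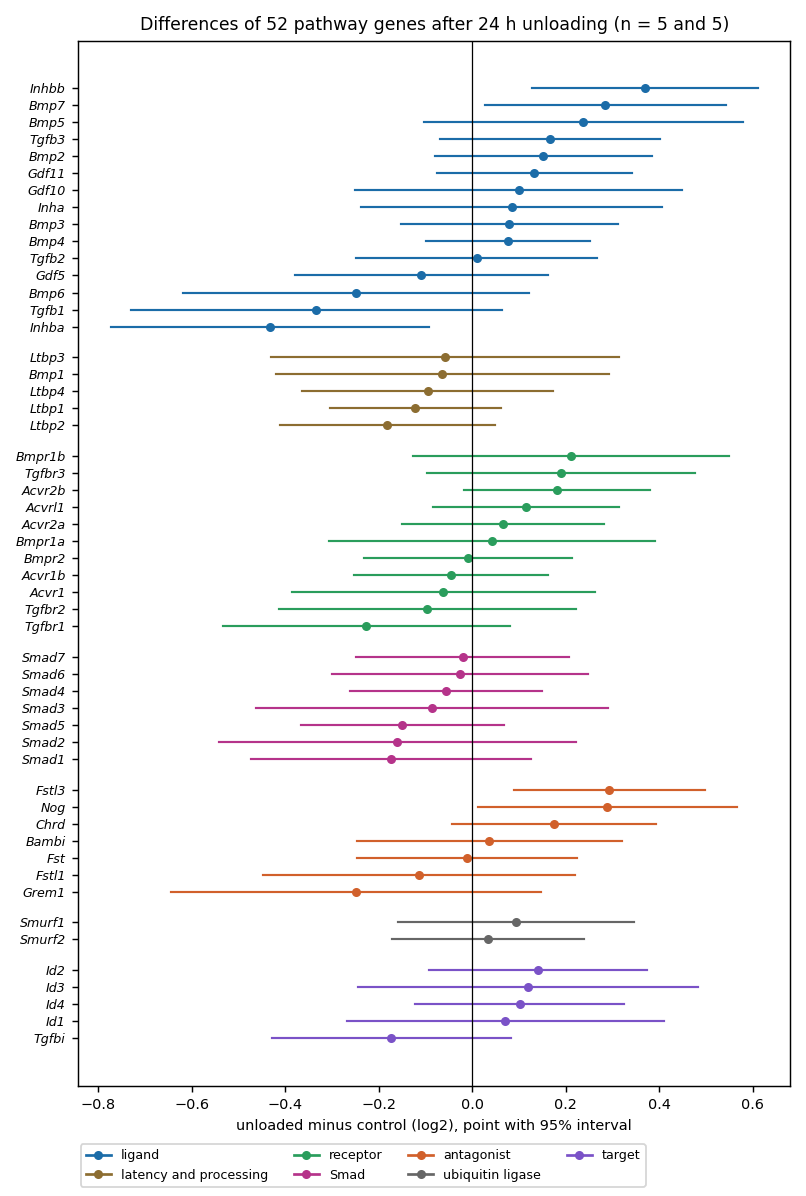
Difference between unloaded and control femur (log2, x axis) for each of the 52 members (y axis, ordered by role), with points for the limma estimate and lines for its unadjusted 95% interval, 5 animals per group. The intervals of Inhbb, Bmp7, Fstl3, Nog and Inhba leave out 0, and none of the 52 passed the adjusted test.

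The 2 genes with the most positive and the most negative difference both encode activin subunits. Inhbb encodes the beta B and Inhba the beta A chain, whose dimers are activins and whose pairing with the alpha chain, from Inha, gives inhibins. Their upstream sequences, from RefSeq on build GRCm38.p6, are shown because these closely related genes had differences of opposite sign, which decided their choice. Each is the 250 bases before the annotated start, written 5′ to 3′ on the strand of the gene, with capitals for any match to the motifs named after them. Inhbb lies on the minus strand, at chr1:119422249-119422498. Inhba lies on the plus strand, at chr13:16011601-16011850.
Inhbb: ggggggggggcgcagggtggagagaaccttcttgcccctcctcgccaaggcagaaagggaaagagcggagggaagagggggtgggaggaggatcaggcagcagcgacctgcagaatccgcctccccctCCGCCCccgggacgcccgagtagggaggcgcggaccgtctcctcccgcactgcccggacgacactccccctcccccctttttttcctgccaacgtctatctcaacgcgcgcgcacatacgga
Inhba: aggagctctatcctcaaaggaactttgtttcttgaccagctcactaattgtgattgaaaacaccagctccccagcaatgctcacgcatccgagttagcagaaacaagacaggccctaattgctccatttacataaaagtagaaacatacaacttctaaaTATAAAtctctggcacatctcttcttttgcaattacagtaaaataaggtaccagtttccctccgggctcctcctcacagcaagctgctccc

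The window of Inhbb is 68% G and C and holds 1 GC box (GGGCGG, here on the opposite strand). That of Inhba is 43.2% G and C and holds 1 TATA box (TATAAA). The 5 other motifs searched were the Smad elements CAGACA, GTCTAGAC and GGCGCC, the cyclic AMP element TGACGTCA and the glucocorticoid half-site TGTTCT, and the letters of these 5 are in neither window. Motifs were sought on both strands, and matches of GGCGCC and GGGCGG may overlap. RefSeq windows matched 37 of the 52 members, with 45 start sites. A GC box stood in 33 of these (73.3%), against 32.7% of 32851 start sites of all genes, and the member windows had a median of 66.8% G and C against 52.4%. CAGACA stood in 15.6% of member windows against 17.1%, GGCGCC in 26.7% against 9.59%, TATAAA in 11.1% against 12.4% and TGTTCT in 6.67% against 16.1%.

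Among the 15 ligands, 11 had a positive and 4 a negative difference, with a median of 0.08, and 8 were positive with median scaling or cyclic loess. Activin beta B carried the largest positive value. Inhbb lay at -0.51, -0.55, -0.69, -0.57 and -0.49 in controls 1 to 5 and at -0.29, -0.48, -0.02, -0.25 and 0.08 in unloaded mice 1 to 5. Every unloaded mouse was above every control, although unloaded 2 exceeded control 5 by little. Its difference was 0.37 (SE 0.11, 1.29-fold, limma adjusted p = 0.240). The other of its 2 probes also separated the groups, with a difference of 0.26 (SE 0.12). On slide 2 the difference was 0.22.

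Activin beta A had the opposite sign. Inhba lay at 0.99, 1.31, 1.32, 0.78 and 0.89 in controls and at 0.86, 0.85, 0.82, 0.47 and 0.14 in unloaded mice. The low values of unloaded 4 and 5, both on slide 3, lay under all controls, while unloaded 1 to 3 lay between the controls. Its difference was -0.43 (SE 0.16, 1.35-fold lower, limma adjusted p = 0.258), and on slide 2 it was -0.05. Inha, which encodes the chain that turns these subunits into inhibin, had 0.08 (interval -0.24 to 0.41) over 5 controls and the 4 unloaded mice with a value. Its second probe had 0.30 (SE 0.10), while on slide 2 the first had -0.30.

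The 3 TGF-beta isoforms did not share a direction. Tgfb1, the main isoform of bone matrix, lay at 1.15, 1.26, 1.38, 1.12 and 1.13 in controls and at 0.93, 1.42, 0.73, 1.13 and 0.16 in unloaded mice. Controls were tightly grouped (SD 0.11), and unloaded mice were spread (SD 0.47), with unloaded 2 above every control and unloaded 5 far under. Its difference was -0.33 (SE 0.18, limma adjusted p = 0.362). It was -0.15 without unloaded 5, -0.47 without unloaded 2 and -0.10 on slide 2. Tgfb3 lay at 1.38, 1.61, 1.44, 1.62 and 1.32 in controls and at 1.56, 1.88, 1.53, 1.45 and 1.78 in unloaded mice. Unloaded 2 and 5 were above all controls and the others among them, for a difference of 0.17 (SE 0.11). Tgfb2 had 0.01 (interval -0.25 to 0.27), but 0.42 on slide 2.

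Of the BMPs among the 52 members, Bmp7 had the largest difference. Bmp7, which promotes bone formation and kidney development, lay at 0.36, 0.39, 0.02, 0.23 and 0.07 in controls and at 0.26, 0.73, 0.53, 0.30 and 0.66 in unloaded mice. Unloaded 2, 3 and 5 lay above all controls, and unloaded 1 and 4 among them. The difference was 0.28 (SE 0.12, 1.22-fold, limma adjusted p = 0.288), the second probe had 0.19 (SE 0.12), and slide 2 gave 0.44. Bmp5, known for its part in skeletal patterning, lay at -0.32, -0.48, -0.46, 0.18 and -0.41 in controls and at -0.19, -0.28, 0.07, -0.30 and 0.40 in unloaded mice. The high control 4 kept the groups overlapping. All 3 of its probes were positive, at 0.24, 0.31 and 0.14.

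Bmp2 and Bmp4, the classical osteogenic BMPs, had small differences. Bmp2 lay at -1.18, -1.37, -1.46, -1.26 and -1.39 in controls and at -1.22, -1.40, -1.18, -1.23 and -0.88 in unloaded mice, with unloaded 5 alone clearly above the controls. The difference was 0.15 (interval -0.08 to 0.38). Bmp4 lay at -0.16, -0.21, -0.28, -0.28 and -0.30 in controls and at -0.14, -0.11, -0.23, -0.23 and -0.13 in unloaded mice. Its SD was 0.06 in both groups, and its difference of 0.08 (interval -0.10 to 0.25) had the smallest SE of any member, 0.08. Bmp3, a BMP that restrains bone formation, had 0.08 (-0.15 to 0.31). Bmp6 had -0.25 (-0.62 to 0.12), with 0.22 (SE 0.10) at its second probe. Among the growth and differentiation factors, Gdf5, which acts in joint formation, had -0.11 (-0.38 to 0.16), Gdf10 0.10 (-0.25 to 0.45) and Gdf11 0.13 (-0.08 to 0.34).

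**Figure D2:**
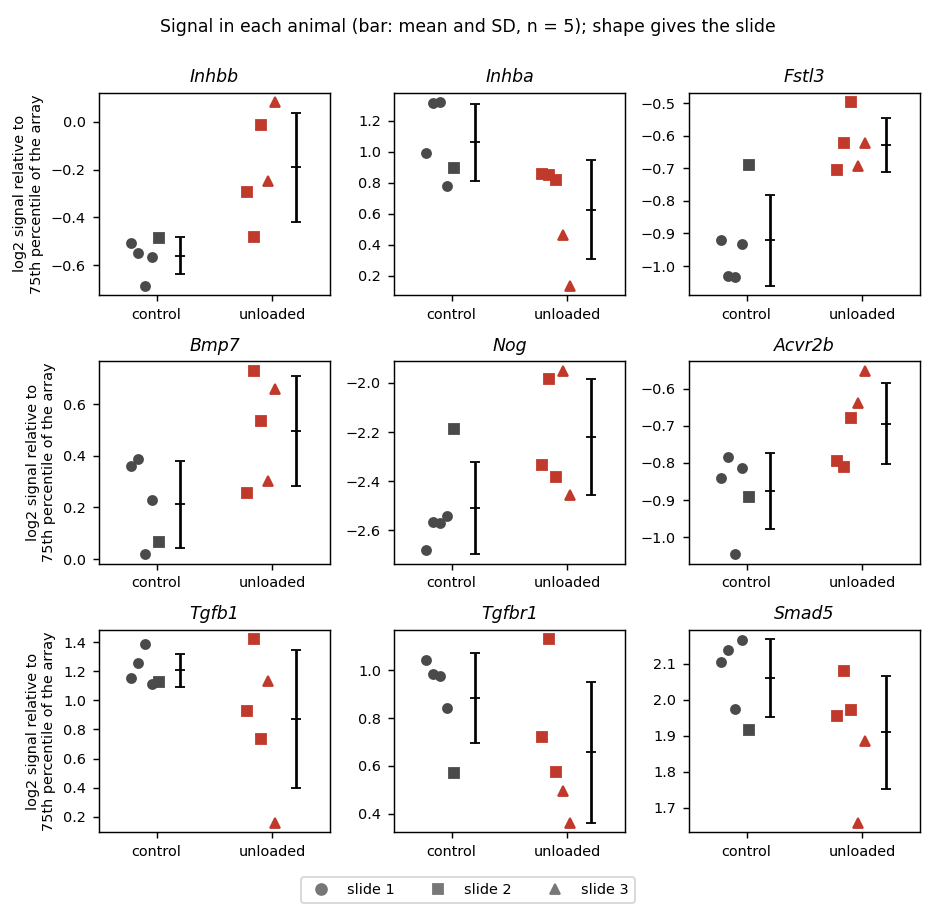
Signal of 9 members in each animal (y axis, log2 relative to the 75th percentile of the array), with circles, squares and triangles for slides 1, 2 and 3 and bars for the mean and SD of 5 animals. For Inhbb all unloaded animals lie above all controls, while for Fstl3 and Nog the control on slide 2 lies among the unloaded animals.

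The storage and cleavage proteins had 5 of 5 negative differences, with a median of -0.10. However, 4 of 5 were negative with quantile normalization, 3 with cyclic loess, 3 with the mean of all probes of a gene and 2 on slide 2. Ltbp1 to Ltbp4 encode latent TGF-beta binding proteins, which hold latent TGF-beta in the matrix or bind matrix fibres, and Bmp1 encodes a procollagen proteinase that also cleaves chordin. Ltbp2 had the smallest p of them and lay at 0.60, 0.88, 0.44, 0.63 and 0.80 in controls and at 0.48, 0.45, 0.59, 0.30 and 0.62 in unloaded mice. Unloaded 4 lay under all controls and the others among them, and the difference was -0.18 (SE 0.11, limma adjusted p = 0.382). Its second, dim probe had 0.32 (SE 0.24). Ltbp1 had -0.12, Ltbp4 -0.10, Bmp1 -0.06 and Ltbp3 -0.06, with intervals that all span 0. The second probes of Ltbp1 and Ltbp3 were positive, at 0.16 (SE 0.14) and 0.03 (SE 0.19), and that of Bmp1 had -0.01 (SE 0.12). On slide 2 Ltbp3 had 0.57 and Bmp1 0.49, where control 5 was the lowest control for both.

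Receptors divided evenly, with 6 positive and 5 negative differences and a median of 0.04. Acvr2b, a type II receptor that binds activins and myostatin, lay at -0.84, -0.78, -1.05, -0.81 and -0.89 in controls and at -0.80, -0.81, -0.68, -0.64 and -0.55 in unloaded mice. Unloaded 3, 4 and 5 were above all controls, for a difference of 0.18 (SE 0.09, limma adjusted p = 0.336). Tgfbr1, the type I receptor for TGF-beta, lay at 1.04, 0.98, 0.98, 0.84 and 0.57 in controls and at 0.72, 1.13, 0.58, 0.50 and 0.36 in unloaded mice. Control 5 lay among the unloaded mice and unloaded 2 above every control, and the difference of -0.23 (SE 0.14, limma adjusted p = 0.409) turned to 0.24 on slide 2. Its second probe had 0.10.

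Tgfbr2, the type II receptor for TGF-beta, lay at 3.07, 3.26, 3.18, 3.16 and 3.04 in controls and at 3.14, 3.53, 2.94, 3.07 and 2.54 in unloaded mice. Unloaded 2 was the highest and unloaded 5 the lowest of all 10. Its difference was -0.10 (SE 0.15), while its 2 dimmer probes had 0.37 (SE 0.12) and 0.10 (SE 0.10). Bmpr2, the type II receptor for BMPs, lay at 0.92, 1.10, 0.90, 1.06 and 0.81 in controls and at 1.08, 1.04, 0.86, 0.70 and 1.05 in unloaded mice. Unloaded 4 lay under all controls and the others among them, with a difference of -0.01 (interval -0.23 to 0.21). The co-receptor betaglycan, from Tgfbr3, had 0.19 (-0.10 to 0.48). Of the type I receptors, Bmpr1b had 0.21 (-0.13 to 0.55), Acvrl1 0.11 (-0.08 to 0.31), Bmpr1a 0.04 (-0.31 to 0.39), Acvr1b -0.05 (-0.25 to 0.16) and Acvr1 -0.06 (-0.39 to 0.26), and the type II receptor Acvr2a had 0.07 (-0.15 to 0.28). The other probes of Acvr2a had 0.14 (SE 0.14) and -0.40 (SE 0.20), and that of Acvr1b had 0.12 (SE 0.13).

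All 7 Smads had negative differences over all arrays, with a median of -0.09, but all 7 were positive on slide 2, with a median of 0.17, 5 of 7 were negative without unloaded 4 or without unloaded 5, and 6 of 7 with cyclic loess. None had an unadjusted p below 0.05. Smad5, which carries BMP signals, lay at 2.10, 2.14, 1.97, 2.17 and 1.92 in controls and at 1.95, 2.08, 1.97, 1.66 and 1.89 in unloaded mice. Unloaded 4 and 5 lay under all controls, for a difference of -0.15 (SE 0.10, limma adjusted p = 0.436), and its 2 dimmer probes had -0.27 (SE 0.13) and 0.36 (SE 0.13). Smad3, which carries TGF-beta and activin signals, lay at -1.04, -0.64, -0.55, -0.91 and -0.98 in controls and at -0.80, -0.32, -1.22, -0.85 and -1.35 in unloaded mice. The unloaded values ran past the controls at both ends, and the difference was -0.09 (interval -0.46 to 0.29).

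Smad7, an inhibitor that TGF-beta itself induces, lay at -1.10, -1.13, -1.28, -0.86 and -1.31 in controls and at -1.04, -1.21, -1.03, -1.29 and -1.21 in unloaded mice, all within the range of the controls. Its difference was -0.02 (interval -0.25 to 0.21). The other inhibitor, Smad6, had -0.03 (-0.30 to 0.25). Smad1 had -0.17 (-0.47 to 0.13), Smad2 -0.16 (-0.54 to 0.22) and the common partner Smad4 -0.06 (-0.26 to 0.15). The second probe of Smad4 had -0.36 (SE 0.18), and that of Smad1 had -0.07 (SE 0.13). On slide 2 Smad1 had 0.17, Smad2 0.06 and Smad6 0.33.

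Antagonists had 4 positive and 3 negative differences, with a median of 0.04. Fstl3 encodes a follistatin-like protein that binds activins and myostatin. Fstl3 lay at -0.92, -1.03, -1.03, -0.93 and -0.69 in controls and at -0.71, -0.62, -0.50, -0.69 and -0.62 in unloaded mice. Every unloaded mouse was above controls 1 to 4, all on slide 1, and control 5 lay at the height of unloaded 4. The difference was 0.29 (SE 0.09, 1.22-fold, limma adjusted p = 0.249), and on slide 2 it was 0.08. Follistatin itself, from Fst, lay at -0.94, -1.04, -1.16, -1.11 and -1.19 in controls and at -0.83, -0.97, -1.27, -1.12 and -1.32 in unloaded mice. The groups were centred on the same value, with a difference of -0.01 (interval -0.25 to 0.22).

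Noggin binds BMPs outside the cell. Nog lay at -2.68, -2.57, -2.57, -2.54 and -2.19 in controls and at -2.33, -1.98, -2.38, -1.95 and -2.45 in unloaded mice. As for Fstl3, all unloaded mice were above controls 1 to 4, and control 5 stood apart from the other controls. The difference was 0.29 (SE 0.13, 1.22-fold, limma adjusted p = 0.303) over all arrays and -0.05 on slide 2. Chordin, another BMP trap, gave a smaller value. Chrd lay at -0.33, -0.46, -0.38, -0.29 and -0.24 in controls and at -0.34, -0.34, 0.07, -0.14 and -0.08 in unloaded mice, with unloaded 3, 4 and 5 above all controls. Its difference was 0.17 (SE 0.10) and on slide 2 0.04.

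Grem1, which encodes the BMP antagonist gremlin, had a difference that rested mostly on 1 animal. Grem1 lay at -1.12, -1.32, -1.36, -1.38 and -1.38 in controls and at -1.09, -1.35, -1.35, -1.69 and -2.32 in unloaded mice. Unloaded 1 to 3 lay with the controls, unloaded 4 under all of them and unloaded 5 far under them. Unloaded 4 and 5 were both on slide 3. The difference was -0.25 (SE 0.18, limma adjusted p = 0.471), -0.06 without unloaded 5 and 0.12 on slide 2. Fstl1, a secreted protein of mesenchymal cells, had -0.11 (interval -0.45 to 0.22), and Bambi, a receptor-like inhibitor without a kinase, had 0.04 (-0.25 to 0.32).

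Downstream of the receptors, the Id genes are direct targets of BMP Smads and code for inhibitors of helix-loop-helix transcription factors. All 4 had positive differences: Id2 0.14 (interval -0.09 to 0.37), Id3 0.12 (-0.25 to 0.48), Id4 0.10 (-0.12 to 0.32) and Id1 0.07 (-0.27 to 0.41). However, Id1 was negative on slide 2 (-0.04) and with median scaling (-0.03). The lowest value of Id3 over the alternative settings was -0.0008. The second probe of Id4 had -0.03 (SE 0.09), and those of Id1 and Id2 had 0.10 and 0.07. Id1 lay at 0.47, 0.91, 0.94, 0.54 and 0.72 in controls and at 0.65, 0.65, 0.75, 0.51 and 1.38 in unloaded mice. Unloaded 5 alone lay above the controls, and without it the difference was -0.08. Tgfbi, a matrix protein induced by TGF-beta, lay at 3.13, 3.56, 3.66, 3.21 and 3.44 in controls and at 3.15, 3.45, 3.14, 3.28 and 3.12 in unloaded mice. Unloaded 5 lay just under the controls and the others among them, for a difference of -0.17 (SE 0.12, limma adjusted p = 0.444).

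The ubiquitin ligases mark Smads and receptors for degradation, and both had small positive differences, though Smurf2 was negative on slide 2 (-0.15) and both were negative with median scaling. Smurf1 lay at -0.0019, -0.56, -0.61, -0.42 and -0.41 in controls and at -0.29, -0.38, -0.32, -0.15 and -0.39 in unloaded mice. Control 1 was the highest of all 10, and the difference was 0.09 (interval -0.16 to 0.34). Smurf2 had 0.03 (-0.17 to 0.24), with all 3 of its probes positive.

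**Figure D3:**
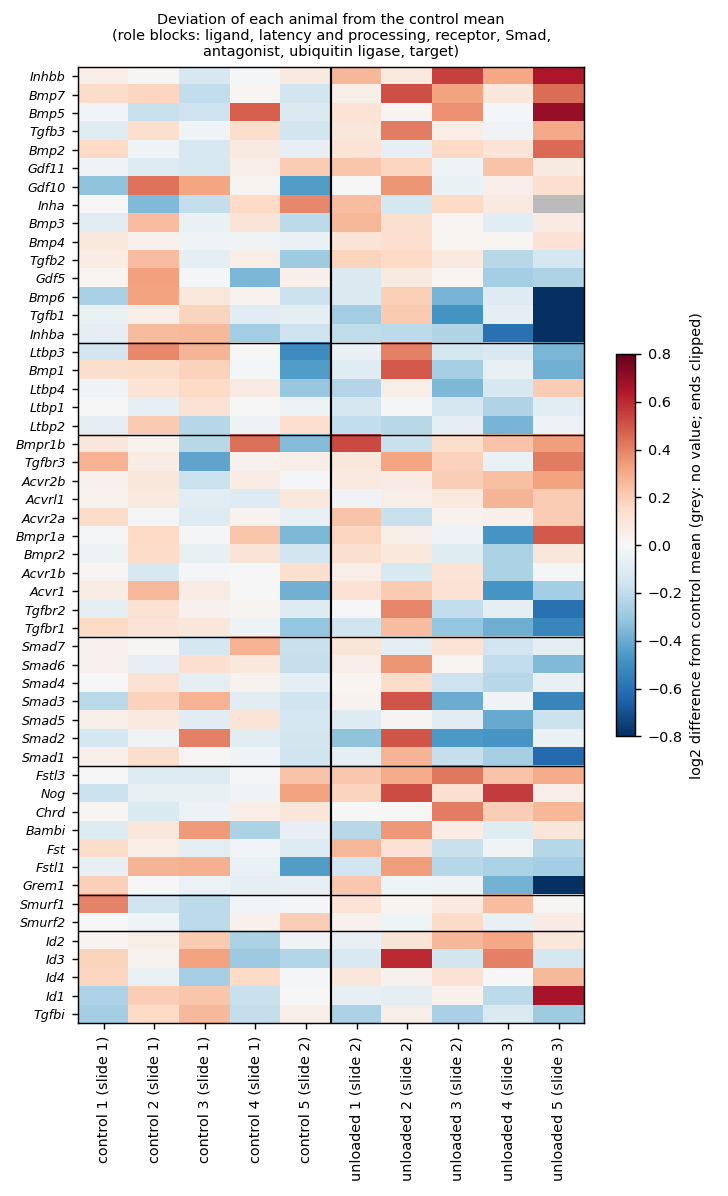
Difference of each animal (columns, with its slide) from the control mean of each member (rows, grouped by role), on a log2 colour scale from -0.8 to 0.8 with values past it clipped. Unloaded 5 is low for Tgfb1, Inhba, Bmp6 and Grem1 and high for Inhbb, Bmp5 and Id1, while unloaded 2 is high for Smad1, Smad2, Smad3, Smad6 and Bmp1.

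A further 71 genes of the pathways were listed by role from general knowledge, of which 67 were tested. Limma called 0 of them, with 48 positive (71.6%, against 60.4% of all genes) and 19 negative differences and a median of 0.11. At an unadjusted p below 0.05 there were 9 higher (13.4%, against 9.90% of all genes) and 2 lower (2.99%, against 5.87%). The smallest p belonged to Lefty1, a secreted inhibitor of Nodal signalling. Lefty1 lay at -2.53, -3.03, -2.62, -2.74 and -2.51 in controls and at -2.47, -2.43, -1.84, -1.55 and -1.47 in unloaded mice. All unloaded mice were above all controls, by little in unloaded 1 and 2, for a difference of 0.73 (SE 0.19, limma adjusted p = 0.218).

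Other ligands with small p were Bmp8b (0.43, SE 0.15), Amh, the anti-Müllerian hormone (0.37, SE 0.13), and Gdf6 (0.36, SE 0.12), each from a dim probe. Smad9, which carries BMP signals beside Smad1 and Smad5, had 0.24 (SE 0.09), and the BMP antagonist Nbl1 0.52 (SE 0.20). The probes of Lefty1 and Smad9 were dim too, and that of Nbl1 was bright. Nbl1 was highest in unloaded 5, at 3.55, against 1.97 to 2.75 in controls. Their adjusted p lay between 0.218 and 0.266 together with Lefty1. Ccn2, a matrix protein induced by TGF-beta, had 0.33 (interval -0.0031 to 0.66). The co-receptor Eng had -0.13 (-0.44 to 0.17) and myostatin, from Mstn, 0.07 (-0.25 to 0.38).

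The sign of a difference went with the brightness of the probe. Over all genes, split by mean signal into 3 classes of equal size, 79.7% of the dim, 63.9% of the middle and 37.5% of the bright class were positive. Of the members, 7 of 9 dim, 14 of 23 middle and 6 of 20 bright ones were positive, and the part of brightness in the role counts was not tested. Of the other pathway genes, 23 of 29 dim, 15 of 19 middle and 10 of 19 bright ones were positive. The part of brightness in their counts was not tested either. Bright members were most frequent among storage and cleavage proteins (4 of 5) and targets (5 of 5), and ligands had 3 of 15. Within genes, 13 of the 25 members with several tested probes had probes of opposite sign, and in 10 of these (76.9%) the dimmest probe was positive and the brightest negative. For all genes, 48.9% of those with several probes had opposite signs, and 52.4% of these had a positive dimmest and a negative brightest probe. Scaling each array to its median moved the median of all probes from 0.07 to -0.03 and left 18 members positive. With cyclic loess, which removes trends with brightness, 26 were positive, 6 of 7 Smads and 3 of 5 storage and cleavage proteins were negative, and the same sign was kept by Inhbb (0.34), Inhba (-0.38), Bmp7 (0.31) and Fstl3 (0.23).

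**Figure D4:**
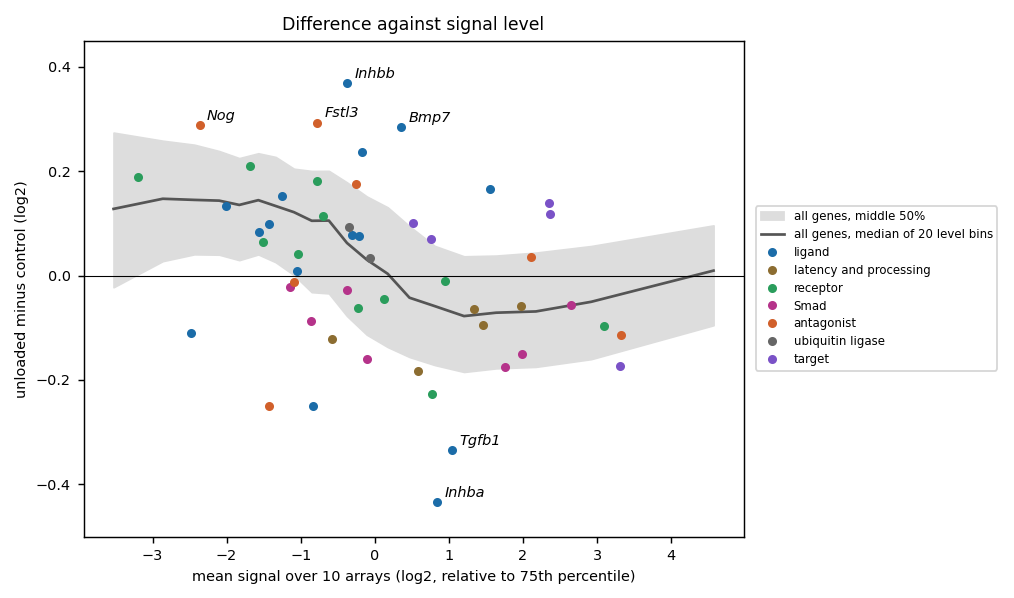
Difference between unloaded and control (y axis, log2) against mean signal over 10 arrays (x axis, log2 relative to the 75th percentile), with members as points coloured by role and all genes as the median (line) and middle 50% (band) of 20 bins of signal. The line falls from positive values for dim genes to -0.08 for brighter ones and returns to 0.01 in the brightest bin. The band leaves out about 50% of all genes by construction. Inhbb, Fstl3, Bmp7, Nog, Tgfb1 and Inhba are among several members outside it.

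Slide 2 gave a different order of the members. There 39 of 52 were positive, against 27 over all arrays, and 24 changed sign, while 51.3% of all probes were positive in that comparison. The largest values were Ltbp3 (0.57), Gdf10 (0.55), Acvr1 (0.53) and Bmpr1b (0.51). With slide as a block limma called 3 probes and 0 members, and the smallest adjusted p of a member was 0.781, for Acvr1. Control 5, on which this comparison rests, was the control farthest from the control mean for 19 of 52 members. Slide and group cannot be told apart for slides 1 and 3. The members with an unadjusted p below 0.05 over all arrays had other values with slide as a fixed block. Inhbb had 0.22 (SE 0.21), Bmp7 0.44 (SE 0.23), Fstl3 0.08 (SE 0.16), Inhba -0.05 (SE 0.23) and Nog -0.05 (SE 0.22). Over 20 alternative settings, 16 members kept 1 sign, among them Inhbb, Inhba, Fstl3, Bmp7, Tgfb1, Tgfb3, Bmp2, Bmp5, Acvr2b and Chrd. The replicate block, 1 of these settings, cannot change a difference without missing values.

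**Figure D5:**
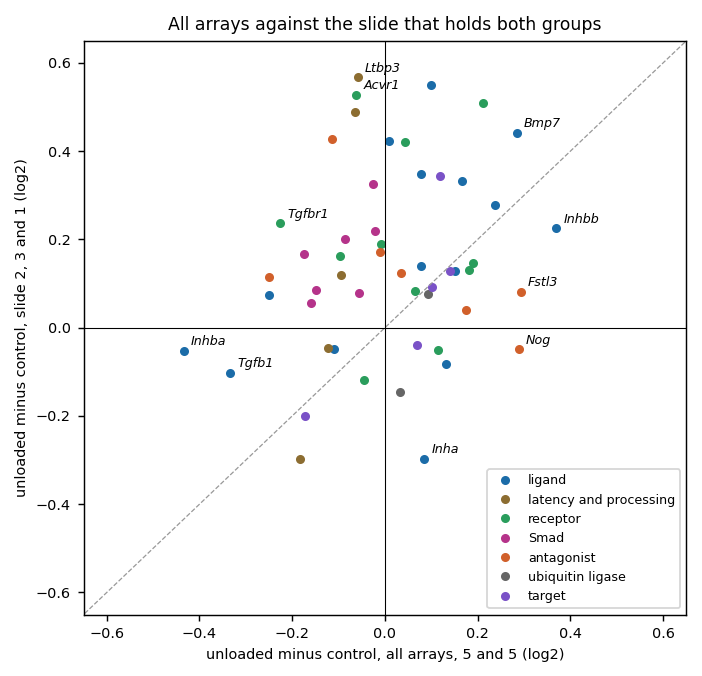
Difference of each member over all arrays (x axis, 5 against 5, log2) against its difference on slide 2 (y axis, 3 unloaded against 1 control, log2), coloured by role, with a dashed line of equality. All 7 Smads lie left of 0 on the x axis and above 0 on the y axis, and Inhbb and Bmp7 are positive on both.

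Leaving out 1 animal raised the number of members with a small p. Without unloaded 2, 9 members had an unadjusted p below 0.05, 3 higher and 6 lower, in place of 5. All probes moved with them, from 10.2% to 16.5% higher and from 5.92% to 8.37% lower at that p. Leaving out any of the other 9 animals gave 4 to 6 members. The 9 members were Inhbb, Fstl3 and Acvr2b, higher, and Inhba, Tgfbr1, Tgfb1, Smad2, Smad1 and Bmp6, lower. Their smallest adjusted p was 0.111, for Inhbb at 0.44, so 0 were called. Unloaded 2 was the unloaded animal farthest from its group mean for 18 of 52 members. The spread between animals was like that of other genes, with a median pooled SD of 0.20 for members and 0.19 for all genes, and was larger in unloaded than in control animals for 33 of 52 members (63.5%, against 61.1% of all genes).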

How the data were processed

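Deposited scanner files held spot intensity from Agilent Feature Extraction 9.1.3.1, protocol GE1-v5_91_0806, on array design 014868, per the file headers. They name background subtraction and spatial detrending, but no step that scales arrays to each other. The authors' deposited series matrix held the same intensity, rounded (ratios 0.995 to 1.005), and was an alternative. Its column medians were 335, 332, 303, 261 and 306 for controls and 315, 269, 253, 311 and 291 for unloaded mice. It was neither centred nor on a log scale, and 1 colour has no direction.

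Each array had 41174 gene probes. Outlier spots (97 in all) were dropped, repeated spots averaged as log2, and the array's 75th percentile (637 to 903 intensity units) was subtracted. Between 89.8% and 95.5% of gene spots were well above background and 0 probes were saturated. A probe was tested if well above background on 4 of 5 arrays of a group and measured on 3 of each. The model was fitted over 38629 probes in R 4.3.3 by limma 3.58.1 (lmFit and eBayes, two-sided), with calls made where the Benjamini-Hochberg adjusted p lay below 0.05. The probe with the highest mean stood for a gene. Members had 84 probes, 71 matched by name and accession and 13 by name alone. RefSeq names and sequences are of GRCm38.p6, and the R package for reading files was data.table (1.17.8).

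Members, roles and lists were chosen with earlier results of these data known. Values on every array are given for the 14 members with the smallest p, the smallest p of each role, members whose groups do not overlap, and Tgfb1, Bmp2, Bmp4, Inhba, Fst, Nog, Grem1, Tgfbr1, Tgfbr2, Bmpr2, Smad3, Smad7 and Id1. Of the other pathway genes, the 6 with the smallest p and Eng, Mstn and Ccn2 are named; 1 other gene under this rule is not reported here. Alternatives covered background, scaling, filter, source, slide, replicate number, body weight, probe choice and each array left out. The fit was tested on simulated arrays. Figures were drawn with matplotlib 3.10.9.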

Additional observations from a re-analysis of the deposited data

Results flagged for a closer look

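In 6 of 104 groups of 5 values, a member's highest animal lay far from the other 4 of its group by Dixon's test, where chance gives about 5%. Bmp5 was 0.18 in control 4, with the next control at -0.32. Grem1 was -1.12 in control 1, with the next at -1.32. Nog was -2.19 in control 5, with the next at -2.54, and Smad2 was 0.38 in control 3, with the next at -0.05. Among unloaded mice, Fstl1 was 3.72 in unloaded 2, with the next at 3.23, and Id1 was 1.38 in unloaded 5, with the next at 0.75.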

How the results depend on the processing

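Limma called 0 members under every alternative run. Of the 5 members at an unadjusted p below 0.05, 4 had the same sign in all 20 alternatives other than filter choice. Nog turned to -0.0483 with slide as a fixed block. Part of this agreement was fixed in advance. The replicate block cannot change a difference without missing values, and the mean of all probes cannot change that of a gene with 1 tested probe. The number of probes called was 1 in the comparison reported, 3 with slide as a fixed block, 0 with body weight as a covariate, and 0 to 2 with single animals left out (2 without control 2, 0 without control 4, control 5 or unloaded 4). The median difference of receptor members, 0.04, was -0.0529 with median scaling and 0.16 with slide as a fixed block. With slide as a fixed block the median difference of Smad members went from -0.09 to 0.1657 and the median difference of latency and processing members (storage and cleavage) from -0.10 to 0.1194. With median scaling the median difference of ligand members went from 0.08 to 0.0033 and the median difference of antagonist members from 0.04 to -0.0595. These moves exceeded the SD between animals of a role's median deviation from the control mean, and the other role medians moved by less than it. The split of probes at an unadjusted p below 0.05 was 3939 higher and 2286 lower, but 1386 and 4474 with median scaling, 2095 and 2938 with quantile normalization, 1364 and 1866 with normexp background, and 2024 and 2935 with cyclic loess, which was chosen after seeing the data. Signs changed for 9 members with median scaling, 9 with body weight, 8 with cyclic loess, 7 with the mean of all probes of a gene, 5 with quantile normalization and 1 with normexp. With slide as a random block the correlation within slides was -0.03 and 1 member changed sign. The replicate block, with animals of equal number as a pair, left 1 probe and 0 members called and 4 members at an unadjusted p below 0.05. Deviations of same-numbered animals correlated between -0.14 and 0.18, and 1 of 5 correlated best with its own number, so the numbers were not taken as pairs. The cause of these changes was not tested. With 5 arrays a group, the median SE of a member's difference was 0.12.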
